A study of Mus musculus with 20 samples.

Results

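Costimulatory receptors and ligands were followed across splenic donor T cells recovered on day 10 after allogeneic transplantation. The genes were taken by symbol, without use of their values: *Cd28*, *Icos*, *Cd27*, *Cd70*, *Cd40lg*, *Tnfrsf4*, *Tnfrsf9*, *Tnfrsf18*, *Tnfsf8* and *Cd226*. Of these 10 symbols, 9 had a row among the 17101 genes of the table, and *Cd40lg* was not analysed here. All 9 passed the filter on low values in every comparison. The 20 libraries fell into 5 groups of 4, namely KO CD4+, KO CD8+, KO CD4+CD8+ double-positive (DP), WT CD4+ and WT CD8+ cells. DP cells of WT donors were not analysed here. KO cells came from donors with the DNMT3a KO (CD4-Cre 2loxP) genotype, in which Cre recombinase driven by the *Cd4* promoter deletes a floxed part of *Dnmt3a*, a de novo DNA methyltransferase, in developing T cells of both lineages. WT cells came from littermates without the deletion. Donors on a B6 background were 6 to 12 weeks old and irradiated F1 recipients were 8 to 12 weeks old per the labels, and all groups had been transplanted. KO animals carried the numbers 1 to 4 and WT animals the numbers 2, 3, 5 and 6. Subsets with the same genotype and number are read here as one animal.

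A T cell that recognizes antigen through its receptor needs a second, costimulatory signal to expand and survive. CD28 and its relative ICOS bind ligands of the B7 family on antigen-presenting cells, and CD28 sets the first such signal on resting cells. Members of the TNF receptor family, including CD27, OX40 (*Tnfrsf4*), 4-1BB (*Tnfrsf9*) and GITR (*Tnfrsf18*), act mostly after activation and signal through TRAF adaptors to NF-κB. Their ligands belong to the TNF family, and activated T cells can make some of them, such as CD70, which binds CD27, and CD30 ligand (*Tnfsf8*), which binds CD30. CD226 (DNAM-1) is an immunoglobulin-family receptor that competes with the inhibitory receptor TIGIT for the nectin-like ligand CD155. These molecules have long been studied in graft-versus-host disease, where donor T cells respond to recipient tissue.

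Between 37547651 and 46966318 reads fell on genes in each library. *Dnmt3a*, the targeted gene, lay between 650.4 and 2007 normalized counts in the 12 KO libraries and between 3542 and 5171 in the 8 WT libraries, and the count covers all exons of the gene, including any outside the deleted part. *Cd4* and *Cd8a* matched the sorts: *Cd4* lay between 44804 and 74386 in CD4+ libraries, and DP libraries held 8758 to 15351 of *Cd4* beside 41594 to 68516 of *Cd8a*. In CD8+ libraries *Cd4* was low, at 302 to 458 in KO and 9.88 to 79.6 in WT. *Cd8a* reached 3771 in CD4+ cells of KO animal 1, against 78.3 to 586 in the other CD4+ libraries. KO animal 2 stood apart in *Gzma*, a cytotoxic granule protease, with 229921 in CD8+ cells against 34225 to 49663 in the other KO animals. The NK cell list (5 of 7 genes in the table, *Gzma* included) summed to 36297 to 233063 in KO CD8+ and 16059 to 24566 in WT CD8+ libraries. It summed to 3939 to 37330 in KO CD4+, 2050.1 to 2914 in WT CD4+ and 46385 to 235119 in KO DP libraries. Most of the CD8+ sums was *Gzma*, at 34225 to 229921 in KO and 11804 to 20577 in WT. Of the other list genes in CD8+ libraries, *Eomes* was lower in KO (1280 to 2193 against 3519 to 4824). *Klrb1c* was higher there (672 to 3066 against 70.1 to 312), and *Tyrobp* overlapped. *Ncr1*, the defining marker, did not exceed 12.9 in any library and was at 0 in each CD4+ library. The neutrophil list (7 of 8 genes in the table) summed to 1822 to 4384 in WT libraries. It was below that range in KO animals 1 (71.7 to 170), 2 (2.94 to 12.4) and 4 (490 to 539). In the libraries of KO animal 3 it summed to 2736 to 7334. The DP library of KO animal 3 held reads on 11783 genes, against 13203 to 14677 in the other libraries. Its T cell list (7 of 10 genes in the table) summed to 290701, against 176462 to 182241 in the other DP libraries. The part of these markers and of that library in the results was not tested, and counts without single libraries are given with the results.

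Promoter sequences, as RefSeq gives them for GRCm38.p6, are shown because DNMT3a adds methyl groups to the cytosine of CpG dinucleotides. They are shown for 2 receptor genes that differed between KO and WT CD8+ cells, *Tnfrsf9* and *Cd27*, and for *Tnfrsf4* and *Tnfrsf18*, which lie near each other and whose levels are set side by side later. Each runs 5′ to 3′ on the gene's strand from 250 bases before to 50 after a start site, with each CpG in capitals. Among the 9 genes, 5 had an entry (*Cd27*, *Tnfrsf4*, *Tnfrsf9*, *Tnfrsf18* and *Tnfsf8*), and *Cd28*, *Icos*, *Cd70* and *Cd226* had none. *Tnfrsf9* has one entry for each of 2 start sites, chr4:150919905-150920204 (plus strand) upstream and chr4:150927749-150928048 (plus strand) downstream. The *Cd27* entry is chr6:125236978-125237277 (minus strand), that of *Tnfrsf4* is chr4:156013445-156013744 (plus strand), and that of *Tnfrsf18* is chr4:156026072-156026371 (plus strand).
Promoter of Tnfrsf9, upstream start: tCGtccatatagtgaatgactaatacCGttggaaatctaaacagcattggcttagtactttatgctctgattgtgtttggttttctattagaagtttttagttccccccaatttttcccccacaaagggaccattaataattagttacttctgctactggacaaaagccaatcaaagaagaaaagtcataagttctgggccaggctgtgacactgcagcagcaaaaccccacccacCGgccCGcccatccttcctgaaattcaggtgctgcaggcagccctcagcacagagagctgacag
Promoter of Tnfrsf9, downstream start: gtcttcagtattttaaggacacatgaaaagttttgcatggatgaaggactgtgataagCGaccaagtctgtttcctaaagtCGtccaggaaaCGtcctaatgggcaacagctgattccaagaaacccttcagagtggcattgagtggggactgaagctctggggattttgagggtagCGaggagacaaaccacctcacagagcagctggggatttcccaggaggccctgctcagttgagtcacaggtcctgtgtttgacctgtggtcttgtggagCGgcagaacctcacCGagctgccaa
Promoter of Cd27: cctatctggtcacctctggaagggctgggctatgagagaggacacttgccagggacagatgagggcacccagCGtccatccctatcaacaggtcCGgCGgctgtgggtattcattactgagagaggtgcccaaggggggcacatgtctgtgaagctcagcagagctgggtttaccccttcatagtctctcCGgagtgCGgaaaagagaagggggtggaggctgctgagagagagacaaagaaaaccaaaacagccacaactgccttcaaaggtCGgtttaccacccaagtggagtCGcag
Promoter of Tnfrsf4: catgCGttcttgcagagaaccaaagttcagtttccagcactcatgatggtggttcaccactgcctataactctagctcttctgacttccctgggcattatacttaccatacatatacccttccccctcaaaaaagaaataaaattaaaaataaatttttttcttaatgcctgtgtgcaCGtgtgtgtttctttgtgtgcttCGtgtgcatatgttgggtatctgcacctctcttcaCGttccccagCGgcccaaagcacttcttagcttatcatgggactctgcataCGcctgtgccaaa
Promoter of Tnfrsf18: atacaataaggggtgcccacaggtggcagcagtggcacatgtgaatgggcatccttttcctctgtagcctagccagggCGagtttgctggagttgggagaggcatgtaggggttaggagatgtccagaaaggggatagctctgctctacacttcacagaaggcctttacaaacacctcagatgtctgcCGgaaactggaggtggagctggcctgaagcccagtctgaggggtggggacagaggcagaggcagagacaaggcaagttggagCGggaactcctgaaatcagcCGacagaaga
The windows held between 4 and 9 CpG. The upstream *Tnfrsf9* window and *Tnfrsf18* held 4, the downstream *Tnfrsf9* window and *Tnfrsf4* held 6, *Cd27* held 7 and *Tnfsf8* held 9, where the median of 32851 promoters of 300 bases was 7 and the middle 50% ran from 3 to 20. Letters of 4 activation-linked motifs were searched on both strands: AP-1 (TGANTCA, in 7.81% of all promoters), the NFAT core (GGAAA, 61.3%), kappaB (by its name, 8.46%) and RUNX (TGTGGT, 16.8%). The downstream *Tnfrsf9* window held all 4, with 1 AP-1, 3 NFAT core, 2 kappaB and 1 RUNX match. The 2 kappaB matches overlap each other in 1 stretch, and 1 NFAT core match overlapped both. The other 5 windows held 1 or 2 NFAT core matches and no other of these letters. A match is a description of the sequence, and methylation was not analysed here.

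The plot of normalized counts by library shows each of the 9 genes in each animal. KO libraries varied more than WT libraries: over genes with a mean of at least 50, the median SD of log2 values was 0.215 in KO CD4+, 0.233 in KO CD8+ and 0.353 in KO DP cells, against 0.114 in WT CD4+ and 0.0870 in WT CD8+ cells. For the 9 costimulatory genes it was 0.387, 0.445 and 0.401 in the KO groups against 0.104 and 0.0975 in the WT groups.

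**Figure D1:**
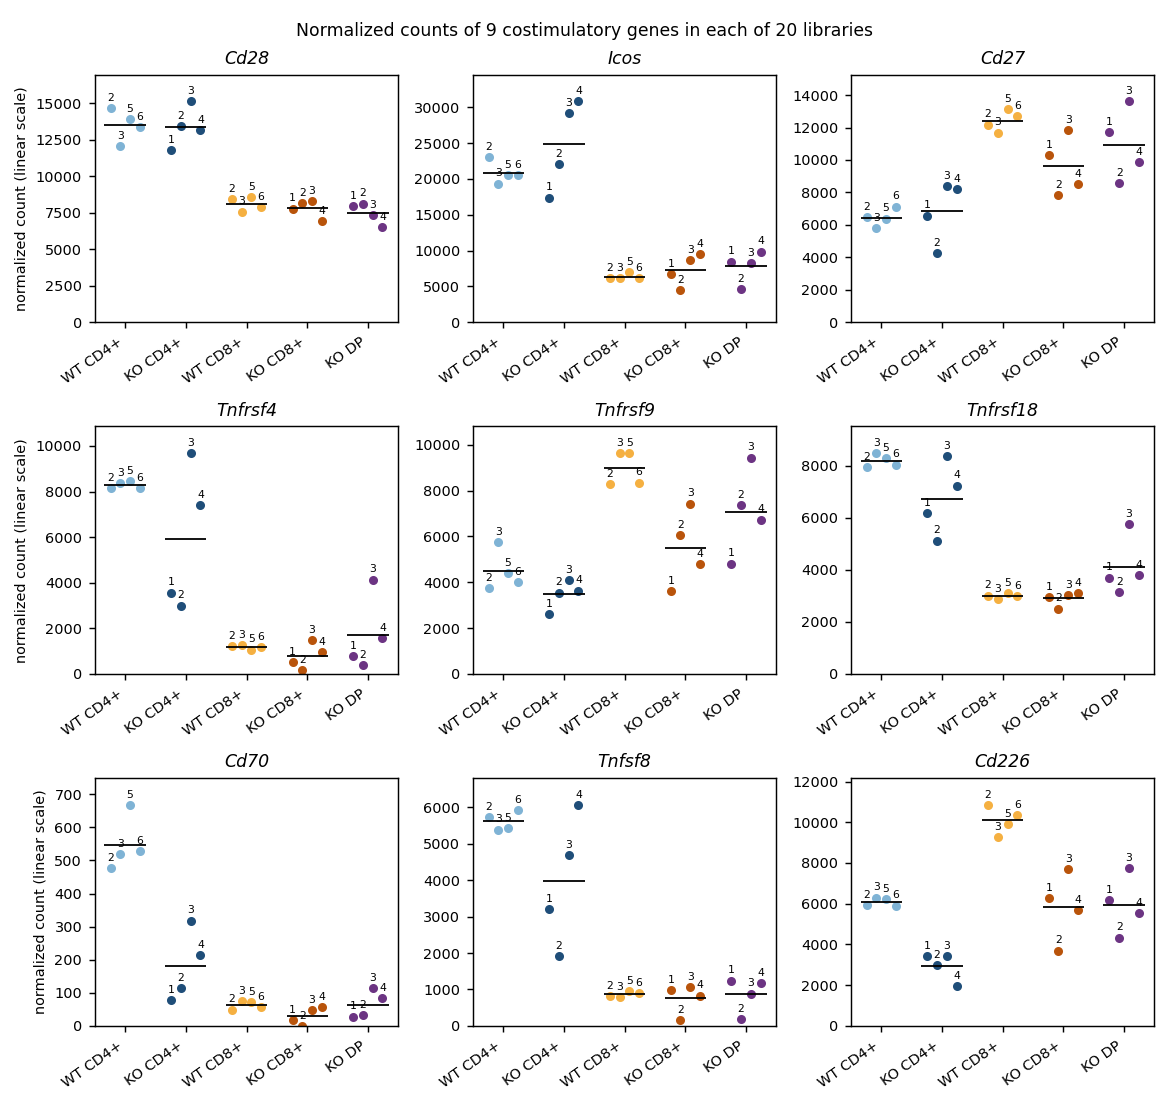
Normalized counts (linear vertical axes from 0) of the 9 genes in the 20 libraries, by group, with the animal number above each point and a horizontal line at the group mean. WT points sit close together while KO points spread, *Cd226* is lower in each KO library than in each WT library of the same subset, and DP points lie among the KO CD8+ points for most genes.

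Levels of different genes were set side by side per kilobase of exon, with all RefSeq exons of a gene joined. That length counts each annotated transcript, whether or not these cells use it, so the order of genes depends on the annotation. On this measure the order of the 9 genes differed between subsets. In WT CD4+ cells *Tnfrsf18* was highest at 7952 ± 243 normalized counts per kilobase (SD, n = 4), followed by *Tnfrsf4* at 6482 ± 125, *Icos* at 4852 ± 358, *Cd27* at 3398 ± 285 and *Cd28* at 3130 ± 256. *Tnfrsf9* at 1476 ± 297, *Tnfsf8* at 1380 ± 62.7 and *Cd226* at 1255 ± 41.4 came next, and *Cd70* was lowest at 651 ± 98.9. *Cd27* and *Cd28* differed by less than the sum of their SDs, as did *Tnfrsf9* and *Tnfsf8*. WT CD8+ cells had *Cd27* on top at 6551 ± 333 normalized counts per kilobase, followed by *Tnfrsf9* at 2959 ± 252, *Tnfrsf18* at 2908 ± 96.4, *Cd226* at 2079 ± 140 and *Cd28* at 1879 ± 106. Below them were *Icos* at 1478 ± 95.1, *Tnfrsf4* at 924 ± 64.3, *Tnfsf8* at 213 ± 19.8 and *Cd70* at 74.9 ± 14.2. *Tnfrsf9* and *Tnfrsf18* could not be ordered beyond their spread there, nor could *Cd226* and *Cd28*. KO CD8+ and KO DP cells also had *Cd27* first, at 5071 ± 951 and 5771 ± 1160.1 per kilobase, and *Tnfrsf18* led in KO CD4+ cells at 6530.1 ± 1349. In these KO groups, 5 of 8 neighbouring pairs in KO CD8+, 7 of 8 in KO DP and 6 of 8 in KO CD4+ cells lay within the sum of their SDs.

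The comparison of KO with WT cells asked how these genes differed by donor genotype within a subset. The paper reports more severe graft-versus-host disease in recipients of KO donors, and its part in these differences was not tested. *Cd226* was lower in KO cells of both subsets and *Cd70* was lower in KO CD4+ cells, while *Tnfrsf9* and, less firmly, *Cd27* were lower in KO CD8+ cells. None of the 9 genes was called higher in KO cells, and *Cd28*, *Icos*, *Tnfrsf4*, *Tnfrsf18* and *Tnfsf8* were called in neither subset. In CD4+ cells 2 of 9 genes passed an adjusted P of 0.05 (limma), both lower in KO, where 18.4% of all genes tested passed and 9.77% passed as lower in KO. In CD8+ cells 3 of 9 passed, all lower in KO, against 25.2% of all genes and 12.5% lower in KO. KO and WT libraries did not overlap for 2 of 9 genes in each subset, where 25.6% of all genes (CD4+) and 30.6% (CD8+) did not. The median log2 difference over the 9 genes was -0.37 in CD4+ and -0.51 in CD8+ cells, beside -0.05 and -0.04 over all genes tested. With 9 genes these shares lie near the background of all calls, and nothing is read from the counts. Scaling to a common 75th percentile moved the share of all calls that were higher in KO: for CD4+ libraries it went to 18.1% from 46.8%, with a median of all genes at -0.16, and for CD8+ libraries to 23.4% from 50.2%, with a median at -0.15. In bulk RNA, fewer cells expressing a gene and less RNA per cell cannot be told apart.

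**Figure D2:**
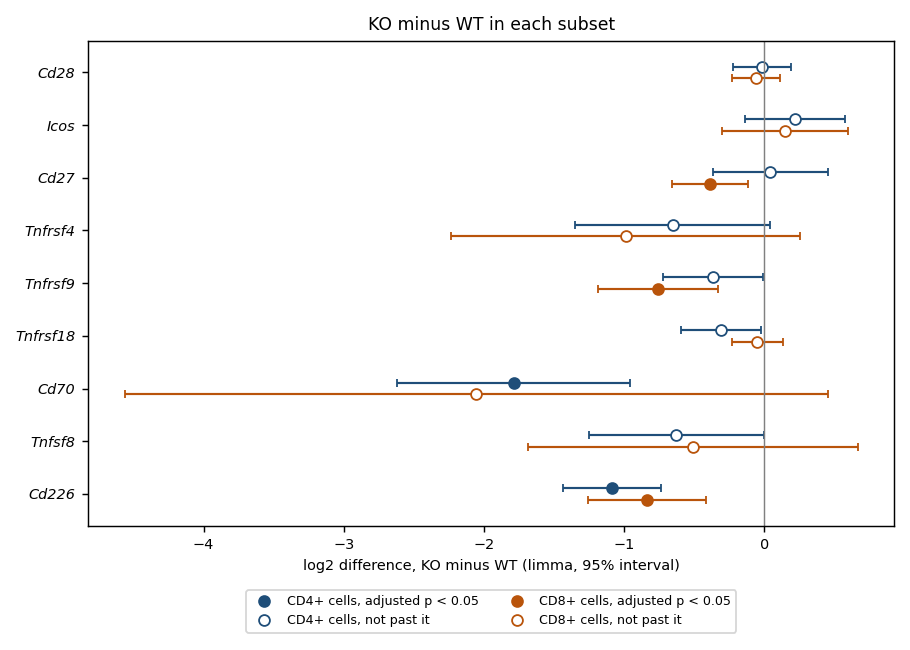
Difference between KO and WT libraries on the log2 scale (horizontal axis), with limma's 95% interval, for each gene in CD4+ and CD8+ cells (n = 4 per group). Filled points passed an adjusted P of 0.05: *Cd70* and *Cd226* in CD4+ cells, and *Cd27*, *Tnfrsf9* and *Cd226* in CD8+ cells, all to the left of 0.

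*Cd226*, the activating receptor of the CD155 axis (chr18:89176954-89272232, plus strand, GRCm38.p6), was lower in KO cells of both subsets. Normalized counts in KO CD4+ cells were 3415, 2995, 3412 and 1937 in animals 1 to 4, against 5939, 6303, 6224 and 5902 in WT animals 2, 3, 5 and 6. In CD8+ cells they were 6279, 3698, 7687 and 5682 in KO and 10856, 9261, 9897 and 10348 in WT. Each KO library was below each WT library of its subset, and the KO levels themselves spread up to 2.08-fold between animals. The log2 difference was -1.09 ± 0.16 (SE) in CD4+ cells with an adjusted P of 0.00394 (limma), a level 2.12-fold lower. In CD8+ cells it was -0.84 ± 0.19 (SE) with an adjusted P of 0.0127, a level 1.78-fold lower. The exact permutation test (2-sided) gave P = 0.0286 in each subset, the smallest that 4 against 4 libraries allow. Both calls held without any single library, with adjusted P up to 0.0183 in CD4+ and 0.0417 in CD8+ cells, and under 9 other settings of scaling, filter and tool. KO DP libraries held 6161, 4336, 7738 and 5545, which overlapped KO CD8+ cells.

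The receptors TIGIT and CD96 share the ligand CD155 with CD226. *Tigit*, an inhibitory receptor for the same ligand, was higher in KO CD4+ cells, where it lay between 10581 and 20480.0 against 9968 to 10876 in WT, by 0.55 on the log2 scale (adjusted P = 0.0458, limma), with its lowest KO library inside the WT range. That call held in only 1 of 8 fits without a single library (adjusted P up to 0.112) and in 4 of 9 other settings. *Cd96*, a further receptor for CD155, was higher in KO CD8+ cells by 0.53 (adjusted P = 0.0118), which held in 8 of 8 such fits. *Pvr*, which encodes CD155, was not called in either subset. Of the list of 11 genes around CD226, 8 had a row, and beside *Cd226* the calls were *Tigit* higher and *Cadm1* lower among 5 others in CD4+ cells, and *Cd96* and *Crtam* higher and *Cadm1* lower among 6 others in CD8+ cells. *Cadm1*, an adhesion molecule that binds the receptor CRTAM, differed by -1.61 in CD4+ and -1.94 in CD8+ cells at low levels, 16.7 to 84.6 and 23.6 to 67.5 in KO, and its call held without a single library in 3 of 8 fits in CD4+ and 8 of 8 in CD8+ cells, and that of *Crtam* in 5 of 8 in CD8+ cells. Beside 18.4% and 25.2% of all genes called, nothing about the list is read from these counts.

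*Cd70*, the ligand of CD27 (chr17:57145997-57149777, minus strand), was the least abundant of the 9 genes. KO CD4+ cells held 78.4, 113, 318 and 213 normalized counts in animals 1 to 4, and WT CD4+ cells held 476, 520.1, 668 and 528. Even the highest KO CD4+ library, that of animal 3, was below the lowest WT library. The log2 difference was -1.79 ± 0.38 (SE) with an adjusted P of 0.0134 (limma), a level 3.46-fold lower in KO, and the call held without each single library, with adjusted P up to 0.0486. Fitted jointly with all 20 libraries, which share one estimate of spread, it did not pass, at an adjusted P of 0.195. CD8+ cells held little *Cd70*, with 18.2, 0, 47.1 and 56.8 in KO, 48.9, 73.9, 71.9 and 57.5 in WT and 28.1, 31.4, 113 and 84.4 in KO DP cells. The library of KO animal 2 had no *Cd70* read, and the KO to WT difference in CD8+ cells, -2.05 (95% interval -4.56 to 0.45), was not called (adjusted P = 0.201).

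*Cd27*, the receptor for CD70 that is present on naive T cells (chr6:125232620-125237136, minus strand), showed a smaller difference. KO CD8+ cells held 10289.9, 7849, 11838 and 8498 normalized counts in animals 1 to 4 and WT CD8+ cells 12175, 11686, 13134 and 12714. KO animal 3 lay within the WT range and the other KO animals below it. The log2 difference was -0.39 ± 0.12 (SE) with an adjusted P of 0.0433 (limma), and the exact permutation P was 0.0571. This call was lost without any one of 6 libraries (KO animals 2 and 4 and each WT animal), at adjusted P of 0.0770 to 0.113, and in 4 of 9 other settings, edgeR among them at 0.0572. In CD4+ cells KO libraries held 6562, 4278, 8369.7 and 8212 and WT libraries 6475, 5801, 6389.7 and 7120.1, which overlapped, with a difference of 0.044 (95% interval -0.37 to 0.45). KO DP cells held 11707, 8583, 13632 and 9872.

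*Tnfrsf9* encodes 4-1BB, a receptor induced on activated CD8+ cells, and lies at chr4:150920155-150946104 on the plus strand. KO CD8+ cells held 3629.9, 6065, 7426 and 4783 normalized counts in animals 1 to 4, and WT CD8+ cells held 8282, 9633, 9640.5 and 8341. All KO libraries were below all WT libraries, with KO animal 1 lowest and KO animal 3 closest to WT. The log2 difference was -0.76 ± 0.19 (SE), a level 1.69-fold lower, with an adjusted P of 0.019 (limma) and an exact permutation P of 0.0286. It held in all 9 other settings and was lost without KO animal 4, WT animal 3 or WT animal 5, at adjusted P of 0.0511, 0.0583 and 0.0578. In CD4+ cells the values were 2595, 3551, 4105 and 3639 in KO and 3739.6, 5765, 4408 and 3995 in WT, with overlap. That difference, -0.37 (95% interval -0.72 to -0.011), was not called (adjusted P = 0.129). KO DP cells held 4811, 7351, 9433 and 6732, with animal 3 inside the range of WT CD8+ libraries. *Tnfsf9*, the ligand of 4-1BB, was also lower in KO CD8+ cells, at 166 to 339 against 367 to 407, a log2 difference of -0.79 (adjusted P = 0.0275, limma). This call held in 3 of 8 fits without a single library (adjusted P up to 0.0791) and in 7 of 9 other settings (up to 0.112).

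*Tnfrsf4* encodes OX40, a receptor found mainly on activated CD4+ and regulatory T cells (chr4:156013595-156016613, plus strand). KO CD4+ cells held 3568, 2995, 9691 and 7418 normalized counts in animals 1 to 4 and WT CD4+ cells 8164, 8385, 8466 and 8145. WT animals lay in a narrow range, while KO animal 3 was above them all and KO animals 1, 2 and 4 below. In CD8+ cells the values were 523, 164, 1499.6 and 966 in KO and 1220.4, 1264, 1072 and 1173 in WT, and in KO DP cells 785, 395, 4134 and 1577. Neither KO to WT difference was called: -0.65 (95% interval -1.35 to 0.041) in CD4+ cells (adjusted P = 0.159) and -0.99 (95% interval -2.23 to 0.25) in CD8+ cells (0.213). Without KO animal 3 the CD4+ difference was -0.95 with an adjusted P of 0.0272 (limma), so that library decides the call. *Tnfsf4*, the OX40 ligand, was lower in KO CD8+ cells, at 80.3 to 109.9 against 234 to 269.7, a log2 difference of -1.48 (adjusted P = 0.00147, limma), and held in 8 of 8 fits without a single library.

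*Tnfrsf18* encodes GITR and lies 9708 bases beyond *Tnfrsf4* on chromosome 4 (chr4:156026322-156028894, plus strand). KO CD4+ cells held 6190.0, 5119.6, 8357 and 7237 normalized counts and WT CD4+ cells 7934, 8488, 8299 and 8043, so that KO animals 1, 2 and 4 were below WT and KO animal 3 within its range. The difference, -0.31 (95% interval -0.59 to -0.021), was not called (adjusted P = 0.116) but passed without KO animal 3, at -0.42 and an adjusted P of 0.0253 (limma). CD8+ cells held 2959.6, 2511, 3036 and 3098 in KO and 3005, 2872, 3115 and 2991 in WT, which overlapped, and the difference there was -0.051 (95% interval -0.23 to 0.13). KO DP cells held 3699.7, 3157, 5743 and 3784. The regulatory T cell list, whose cells carry both GITR and OX40, had 7 of 8 genes in the table and summed to 19015 to 29725 in KO CD4+ and 25384 to 26705 in WT CD4+ cells, lowest in KO animal 2 and highest in KO animal 3. *Foxp3*, which defines these cells, was not analysed here, and their part in the values of *Tnfrsf4* and *Tnfrsf18* was not tested.

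*Tnfsf8*, the CD30 ligand (chr4:63831202-63861508, minus strand), held 3204, 1907, 4699 and 6071 normalized counts in KO CD4+ cells of animals 1 to 4 and 5738, 5389, 5430.1 and 5925 in WT CD4+ cells. KO animal 4 was above WT, and KO animals 1, 2 and 3 below. In CD8+ cells KO libraries held 985, 157, 1055 and 828 and WT libraries 826, 781, 963 and 902, with KO animal 2 far below the rest. The same animal was lowest among KO DP libraries, at 1242, 175, 884 and 1163. Neither difference was called, at -0.63 (95% interval -1.25 to -0.0033) in CD4+ cells (adjusted P = 0.136) and -0.51 (95% interval -1.69 to 0.67) in CD8+ cells (0.493). Without KO animal 4 the CD4+ difference was -0.87 with an adjusted P of 0.0391 (limma). The CD8+ difference ranged from -0.78 to 0.14 with single libraries left out, and the value above 0 was that without KO animal 2.

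*Cd28* and *Icos*, members of one receptor family that lie 187413 bases apart on chromosome 1, were not called between genotypes in either subset. *Cd28* (chr1:60746388-60773359, plus strand) held 11807, 13457, 15149 and 13135 normalized counts in KO CD4+ and 14689.8, 12079, 13935 and 13338 in WT CD4+ cells. CD8+ cells held 7775, 8169, 8289 and 6924 in KO and 8428, 7571, 8553 and 7898 in WT, and KO DP cells 7972, 8124, 7323 and 6528. The groups overlapped in both subsets, and the KO to WT difference on the log2 scale was -0.015 (95% interval -0.22 to 0.19) for CD4+ libraries and -0.06 (95% interval -0.23 to 0.11) for CD8+ libraries. *Icos* (chr1:60960773-61000322, plus strand), the receptor for ICOS ligand on activated T cells, varied more. KO CD4+ cells held 17401, 22035, 29159 and 30873 and WT CD4+ cells 23009, 19341, 20552 and 20585, with KO animals 3 and 4 above WT and KO animal 1 below. CD8+ cells held 6665, 4495, 8644 and 9474 in KO and 6135, 6167, 6973 and 6166 in WT, and KO DP cells 8459, 4644, 8224 and 9853. The difference was 0.22 (95% interval -0.14 to 0.58) for CD4+ and 0.15 (95% interval -0.30 to 0.60) for CD8+ libraries, and neither passed. Follicular helper T cells carry much ICOS, and their list (6 of 7 genes in the table) summed to 12431 to 22820.2 in KO CD4+ and 17956 to 23368 in WT CD4+ libraries, whose part in the *Icos* values was not tested.

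The other genes of the costimulatory lists are given beside the 18.4% (CD4+) and 25.2% (CD8+) of all genes that were called between KO and WT cells, and nothing about the lists is read from their counts. Among CD28-family receptors and B7 ligands, 1 of 9 tested genes other than *Cd28* and *Icos* passed in each subset: *Cd274*, which encodes PD-L1, fell in KO CD4+ cells (-0.59, adjusted P = 0.0267, limma; 5 of 8 fits without a single library) and *Pdcd1*, the inhibitory receptor PD-1, fell in KO CD8+ cells (-0.77, adjusted P = 0.0482; 2 of 8). The B7 ligands *Cd80*, *Cd86* and *Icosl* were not called in either subset. Among TNF receptors and ligands, 1 of 11 other genes passed in CD4+ cells, namely *Tnfrsf14*, the receptor HVEM, which fell (-0.53, adjusted P = 0.0245; 5 of 8), and 2 of 10 others passed in CD8+ cells, *Tnfsf4* and *Tnfsf9*. *Tnfrsf8*, the CD30 receptor, lay between 40.1 and 462 in the KO libraries and was not called in either subset. The medians of the list of TNF receptors and ligands, -0.53 in CD4+ and -0.37 in CD8+ cells, stood beside -0.05 and -0.04 over all genes.

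The genotype by subset interaction tested whether the KO to WT difference itself differed between CD4+ and CD8+ cells. It was called for none of the 9 genes by limma, edgeR or DESeq2, where 0.0161% of all genes were called with limma. None of the 9 had an unadjusted P under 0.05 with limma, where 793 of all 12446 genes tested did. With the animal number as a block it was again called for 0 of 9, where 1.39% of all genes were. Without the block the intervals were wide: for *Cd70*, which was called in CD4+ cells only, the difference between subsets was 0.27 (95% interval -2.42 to 2.95), for *Cd27* 0.43 (95% interval -0.083 to 0.95) and for *Tnfrsf9* 0.39 (95% interval -0.18 to 0.97). For *Cd226* it was -0.25 (95% interval -0.82 to 0.32). The *Cd70* value was -1.04 without the CD8+ library of KO animal 2, which had no *Cd70* read. A gene called in one subset was therefore not shown to differ between them.

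The comparison of subsets asked how the genes differ between the lineages. In WT cells all 9 genes differed between CD4+ and CD8+ libraries (limma), where 44.5% of all genes did. *Cd70*, *Tnfrsf4*, *Tnfsf8*, *Icos*, *Tnfrsf18* and *Cd28* were higher in CD4+ cells, by 3.11, 2.81, 2.697, 1.71, 1.45 and 0.73 on the log2 scale. *Tnfrsf9*, *Cd27* and *Cd226* were higher in CD8+ cells, with CD4+ minus CD8+ differences of -1.02, -0.95 and -0.73. *Tnfrsf4* was thus 7.02-fold higher and *Cd28* 1.66-fold higher in CD4+ than in CD8+ cells, and each animal showed the same direction for each gene (4 of 4). Adjusted P values were between 2.85e-12 for *Tnfrsf4* and 6.10e-06 for *Tnfrsf9*, and all 9 calls held without any single library. *Icosl* was also higher in CD4+ cells, by 2.01, as was *Lta*, the TNF-family cytokine lymphotoxin α, by 2.81.

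Directions in KO cells were the same for each gene, with more spread. Each of the 4 KO animals had more *Cd28*, *Icos*, *Cd70*, *Tnfrsf4*, *Tnfrsf18* and *Tnfsf8* in its CD4+ than in its CD8+ cells, and less *Cd27*, *Tnfrsf9* and *Cd226*. Without the pairing of subsets by animal, 5 of 9 passed (limma), where 4.22% of all genes did: *Tnfrsf4* (3.15), *Tnfsf8* (2.58), *Icos* (1.78), *Tnfrsf18* (1.19) and *Cd28* (0.78). With the animal number as a block all 9 passed, where 18.9% of all genes did, at adjusted P of 0.012 for *Cd70* (3.37), 0.00291 for *Cd226* (-0.98), 0.00106 for *Tnfrsf9* (-0.63) and 0.0117 for *Cd27* (-0.52). Without the block, the call for *Tnfrsf4* was lost without the CD4+ library of animal 3 or 4 or the CD8+ library of animal 1 (adjusted P of 0.0825, 0.0794 and 0.0535). That for *Tnfsf8* was lost without the CD4+ library of animal 1, 3 or 4 or the CD8+ library of animal 4 (0.0914, 0.121, 0.123 and 0.0700). *Cd226* passed without the CD8+ library of animal 2, at -1.18 and an adjusted P of 0.0238.

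**Figure D3:**
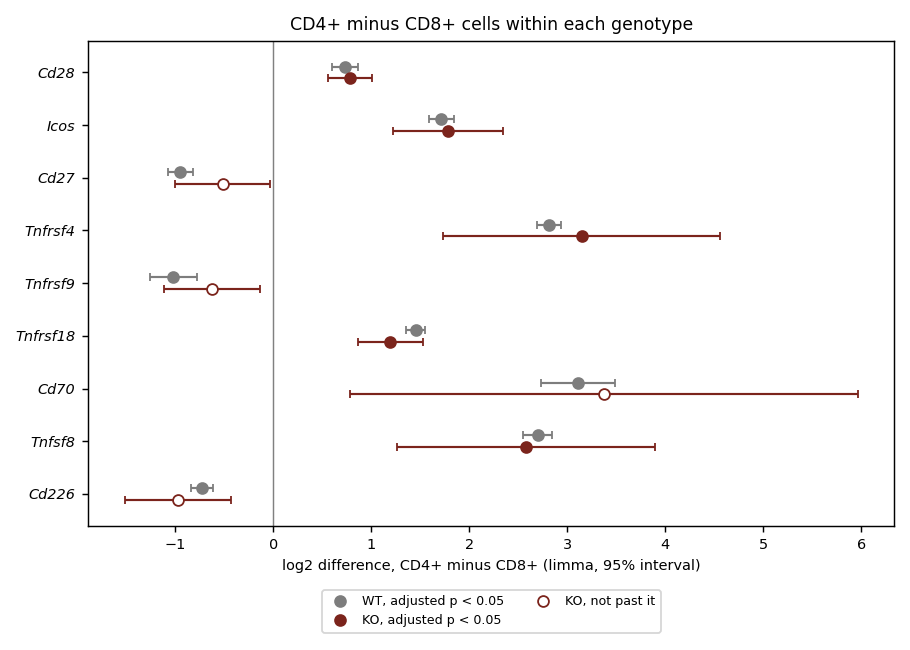
CD4+ minus CD8+ difference on the log2 scale (horizontal axis) with limma's 95% interval, in WT and in KO cells (n = 4 per group, without the block). In both genotypes 6 genes lie right of 0 and *Cd27*, *Tnfrsf9* and *Cd226* left of it, the KO intervals are wider, and open points did not pass an adjusted P of 0.05.

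DP cells, which carry both coreceptors, were compared with each single-positive subset of the same KO animals. Against KO CD8+ cells, none of the 9 genes was called by limma, edgeR or DESeq2, with or without the block, where 0.00823% of all genes were called (limma). An unadjusted P under 0.05 (limma) was found for 1 of 9, *Tnfrsf18*, and for 237 of all 12153 genes tested. *Tnfrsf18* was higher in the DP than in the CD8+ cells of each animal, by 0.29 to 0.92 on the log2 scale, and the groups did not overlap. The largest of these differences was in animal 3, whose DP library held reads on the fewest genes. Without the block, its interval was 0.057 to 0.87 with an adjusted P of 0.871 (limma). *Tnfrsf9*, *Cd27*, *Tnfrsf4* and *Cd70* were also higher in DP cells in 4 of 4 animals, by 0.28 to 0.49 for *Tnfrsf9*, 0.13 to 0.22 for *Cd27*, 0.59 to 1.46 for *Tnfrsf4* and 0.56 to 5.02 for *Cd70*, the last value against the library without a *Cd70* read. Intervals that do not use the pairing by animal left room for differences in either direction. They ran from -0.33 to 0.21 for *Cd28*, -0.53 to 0.72 for *Icos*, -0.49 to 0.58 for *Cd226* and -0.76 to 2.77 for *Tnfrsf4*. For *Tnfrsf4* the differences within animals, given above, were all above 0. Likeness was therefore not shown by the lack of calls.

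Against KO CD4+ cells, DP cells had less *Icos* (-1.69, adjusted P = 0.0106, limma) and *Cd28* (-0.84, 0.0105) and more *Tnfrsf9* (1.01, 0.0444). These 3 of 9 compare with 1.95% of all genes. The *Tnfrsf9* call was lost without any one library other than that of DP animal 1, at adjusted P of 0.0574 to 0.123. With the animal as a block all 9 passed, against 7.06% of all genes, since each animal had less *Cd28*, *Icos*, *Cd70*, *Tnfrsf4*, *Tnfrsf18* and *Tnfsf8* and more *Cd27*, *Tnfrsf9* and *Cd226* in DP than in CD4+ cells. *Tnfsf8* differed by -2.40 and *Tnfrsf4* by -2.14. The DP library of animal 3 had the highest *Tnfrsf4* of the DP libraries and reads on the fewest genes. Without it, *Tnfrsf4* and *Tnfrsf18* passed without the block (-2.74 and -0.90, adjusted P of 0.0338 and 0.0304, limma).

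The animal with the lowest or highest level was the same in all 3 KO subsets for some of the genes. *Tnfrsf4* was lowest in animal 2 and highest in animal 3 in all 3 KO subsets, with the highest library 3.24 times the lowest in CD4+, 9.16 times in CD8+ and 10.5 times in DP cells. *Cd27* was likewise lowest in animal 2 and highest in animal 3 in each subset, and *Tnfrsf9* lowest in animal 1 and highest in animal 3. *Icos* was highest in animal 4 in each subset, and *Tnfsf8* lowest in animal 2. *Cd28* varied least, by 1.197 to 1.283 times. Animal 2 was the one with the high *Gzma* level and animal 3 the one with neutrophil transcripts within or above the WT range. The DP library of animal 3 was also the one with reads on the fewest genes. The part of any of these in the levels was not tested.

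**Figure D4:**
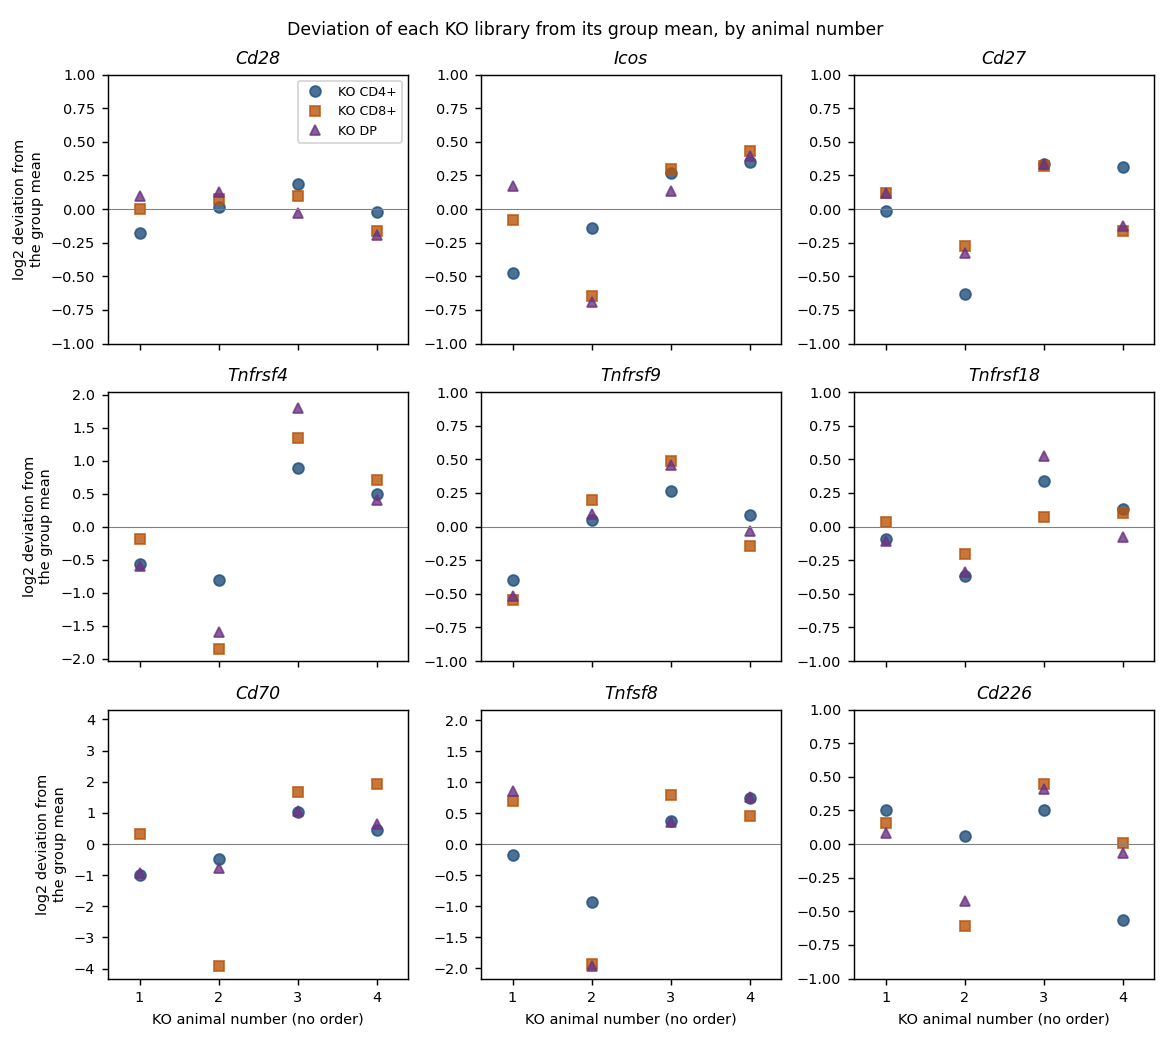
Deviation of each KO library from the mean of its group on the log2 scale (vertical axis; ranges differ between panels), by animal number, which has no order. The circles (CD4+), squares (CD8+) and triangles (DP) of one animal lie on the same side of 0 in all 4 animals for *Tnfrsf4*, in 3 for *Tnfrsf9* and in 2 for *Cd27*, and animal 3 is highest in each subset for these genes.

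Over the 12 KO libraries, after the group means were subtracted, several pairs of genes followed each other. *Icos* and *Tnfsf8* had r = 0.87, *Tnfrsf4* and *Tnfrsf18* r = 0.86, *Tnfrsf4* and *Cd70* r = 0.86, *Cd27* and *Tnfrsf18* r = 0.83, and *Icos* and *Tnfrsf4* r = 0.81. *Cd28* went with none of them, with r between -0.27 and 0.33. These 12 points share 4 animals, so they describe those animals. The CD8+ library of animal 2, without a *Cd70* read, lay at -3.93 from its group mean for *Cd70*. For *Tnfsf8* animal 2 lay at -1.94 in CD8+ and -1.97 in DP cells. Over all 20 libraries, which also share group and depth, the genes most like *Tnfrsf4* were *Il1r2*, *Il21* and *Fam83g* (r = 0.97 for each), those most like *Icos* were *Mgrn1* (0.97), *St3gal2* (0.97) and *Zc3h12a* (0.96), and those most like *Cd28* were *Maf* (0.96), *Cxcr5* (0.96) and *Axin2* (0.95). *Tnfsf8* was most like *Synpo* (0.98), *Inpp4b* and *Tnfsf14* (0.97 each), *Tnfrsf18* most like *Stx6* (0.97), *Tnfsf11* (0.97) and *Podnl1* (0.96), and *Cd70* most like *Dhrs3* (0.96), *Il1r2* (0.94) and *Csf2* (0.93). Those most like *Tnfrsf9* were *Irf8* (0.95), *Nap1l1* and *Dnajc9* (0.94 each), like *Cd27* *Pld3* (0.95), *Vmp1* (0.93) and *Eno3* (0.92), and like *Cd226* *Cd38* (0.95), *Ltk* (0.91) and *Mrc2* (0.89).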

How the data were processed

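RNA-Seq data of 20 libraries were taken as deposited: from directional mRNA libraries, the authors aligned reads with STAR (2.7.2b in the submitters' processing notes) to GRCm38 (mm10), counted them per gene and strand over exons and normalized them with DESeq2, so the values are a signal in normalized counts for 17101 genes. Multiplying each library by its factor returned whole reads for 100% of values (tolerance 0.001). Genes with a mean of at least 10 over the libraries compared were tested on log2(normalized count + 1) with limma 3.58.1 in R 4.3.3 (eBayes with trend, 2-sided, Benjamini-Hochberg over all genes). Fold changes of low genes on this scale can be too small, or too large where a library has no read. *Cd70* in KO CD4+ against KO CD8+ cells differed by 3.37 with limma and by 2.56 with DESeq2. Samples were grouped by genotype, subset and animal number in their labels, and P values measure the spread between those samples. Results were recomputed with edgeR 4.0.16 and DESeq2 1.42.0 on whole reads, with quantile or 75th-percentile scaling, with a pseudocount of 10, unfiltered and at a minimum mean of 50, with eBayes lacking the trend, with all 20 libraries in one model, with a block for the animal number, and leaving out single libraries. The calculation was tested on simulated data with equal spread in KO and WT libraries and no pairing by animal, which differs from the data used here.

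The genes, lists and comparisons were chosen with earlier results of these data known. Named genes are the 9 genes, their binding partners, up to 3 of each list with the largest called change and a mean of at least 50, and the 3 most correlated genes. To check whether equal numbers mark one animal, each library's deviations from its group mean were correlated: r was 0.376 to 0.707 between KO subsets and 0.224 to 0.311 between WT subsets at equal numbers, against -0.507 to 0.171 and -0.182 to 0.0175 at other numbers, so subsets of one genotype were paired by the animal number in their titles. KO and WT donors are different animals, so their shared numbers 2 and 3 do not pair them. Positions and promoters are from RefSeq for GRCm38.p6, which matched 16107 genes by symbol.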

Additional observations from a re-analysis of the deposited data

Results flagged for a closer look

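In 1 group of 4 libraries, 1 value of the 9 genes stood far from the rest by Dixon's criterion. *Icos* in WT CD8+ cells was 6973 in animal 5, where the other WT animals held 6135 to 6167. Among binding partners, *Cd86*, a B7 ligand of CD28, was 738 in KO CD4+ cells of animal 1, where the other KO animals held 583 to 599. The same library held the highest *Cd8a* among CD4+ libraries. Animal 1 also held the most *Cd86* in KO CD8+ cells (1090, against 647 to 898) and in KO DP cells (1404, against 574 to 1182). The cause of its *Cd86* level was not tested. Chance flags about 1 in 20 groups, and 2 of 95 were found.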

How the results depend on the processing

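Without a single library, the number of the 9 genes past the threshold ranged from 2 to 4 between KO and WT CD4+ cells, 1 to 3 in CD8+ cells, 9 to 9 between WT subsets, 3 to 6 between KO CD4+ and CD8+ cells and 2 to 4 between DP and KO CD4+ cells. It stayed at 0 for DP against KO CD8+ cells and for the interaction under each setting run. Of KO to WT calls, the joint fit left 1 of 2 in CD4+ cells. The replicate block on the shared numbers 2 and 3, which compares 2 libraries a group and pairs no animals, left 0 in CD4+ and 0 in CD8+ cells (r at equal numbers 0.101 to 0.153 and 0.0268 to 0.167). Between KO CD4+ and CD8+ cells the count was 3 without the trend and 9 with the replicate block, and between DP and KO CD4+ cells 6 with DESeq2, 8 in the joint fit and 9 with the replicate block. Differences near 0 changed sign. For *Cd28*, KO to WT was 0.0011 with DESeq2 and 0.10 with the replicate block in CD4+ cells (-0.077 to 0.043 without single libraries) and 0.043 with the block in CD8+ cells. *Cd27* in CD4+ cells was -0.071 at a common 75th percentile and -0.034 with the block (-0.068 to 0.25). In CD8+ cells *Tnfrsf18* ran from -0.084 to 0.017 and *Tnfsf8* from -0.78 to 0.14. DP minus KO CD8+ was -0.012 for *Cd226* at a common 75th percentile (-0.16 to 0.19), -0.11 to 0.0053 for *Cd28*, -0.12 to 0.33 for *Icos* and -0.47 to 0.84 for *Tnfsf8*. The interaction of *Cd70* was -0.56 with a pseudocount of 10, -0.21 with quantile normalization, -0.56 with edgeR and -0.56 with DESeq2 (-1.04 to 0.91), and ran from -0.016 to 0.10 for *Cd28*, -0.15 to 0.23 for *Icos*, -0.28 to 0.78 for *Tnfrsf4* and -0.76 to 0.19 for *Tnfsf8*. Over all genes, KO to WT calls in CD4+ cells (2274) were 1403 without the trend, 1285 in the joint fit and 26 with the block, and 628 to 2963 without single libraries. In CD8+ cells (3118) they were 2014 in the joint fit and 89 with the block, and 1633 to 4092 without single libraries. WT subset calls (5592) were 1595 in the joint fit. KO subset calls (514) were 299 without the trend, 956 with DESeq2, 884 in the joint fit and 2305 with the block, and 233 to 486 without single libraries. DP to KO CD4+ calls (237) were 124, 728, 1453 and 860 in the same order, and 84 to 279 without single libraries. DP to KO CD8+ calls (1) were 3 with DESeq2, and interaction calls (2) were 7 without a filter, 0 without the trend, 1 with edgeR, 21 with DESeq2, 1 in the joint fit and 173 with the block, and 0 to 5 without single libraries. At a common 75th percentile *Tnfrsf18* passed in CD4+ cells (adjusted P = 0.0392, limma). The cause of these changes was not tested. *Cd70* had the fewest reads of the 9 genes in CD8+ cells, with no read in the library of KO animal 2, which held 44344358 reads on genes.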

Other observations

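Genes that carry the signal of these receptors are given beside the share of all genes called. Of 23 tested genes of TRAF adaptors and NF-κB, through which the TNF receptors signal, 9 were lower and 1 higher in KO CD4+ cells, and 6 were lower and 2 higher in KO CD8+ cells (limma, adjusted P of 0.05), where 18.4% and 25.2% of all genes were called and 9.77% and 12.5% were lower in KO, with list medians of -0.24 and -0.12 beside -0.05 and -0.04 over all genes. In CD4+ cells *Nfkb2*, a subunit of the noncanonical pathway, differed by -0.78, the inhibitor *Tnfaip3* (A20) by -0.75 and the ubiquitin ligase *Birc2* by -0.72. In CD8+ cells the nuclear IκB genes *Nfkbid* and *Nfkbiz* differed by -1.22 and -0.91, and *Tnfaip3* by -0.90. *Traf6* was higher in both, in CD4+ cells in only 1 of 8 fits without a single library. The lower calls in CD4+ cells numbered 1 without WT animal 6 and 11 without KO animal 3, with 0 to 1 higher over all such fits, and in CD8+ cells 5 to 9 were lower and 1 to 3 higher. *Birc2* passed in 8 of 8 such fits in CD4+ cells, *Nfkbid*, *Nfkbiz* and *Tnfaip3* in 8 of 8 in CD8+ cells, *Nfkb2* in 7 of 8 and *Tnfaip3* in 3 of 8 in CD4+ cells.

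Of 20 tested genes of CD28 signal transduction, 4 were higher and 2 lower in KO CD4+ cells, and 6 were higher and 2 lower in KO CD8+ cells, beside the same shares of all genes. The list medians were 0.07 and 0.17, and without single libraries 1 to 4 were higher and 1 to 3 lower in CD4+ cells (1 and 1 without WT animal 6), and 3 to 7 higher and 2 to 3 lower in CD8+ cells. *Prkcq*, the kinase PKCθ, was higher by 0.62 and 0.68, and *Pik3r1*, a regulatory subunit of PI3K, by 0.60 and 0.73. *Rltpr*, a scaffold of CD28 signalling, was lower in both subsets, with a log2 difference of -0.60 in CD8+ cells. Of 11 genes of the CD2 and SLAM family, *Cd6*, a receptor of activated leukocyte cell adhesion molecule, was higher in both subsets, by 0.54 and 1.05 (3 of 8 and 8 of 8 fits without a single library), and *Sh2d2a*, an adaptor, was lower in CD8+ cells (log2 difference -0.48). In WT cells 16 of 23 genes of the NF-κB list were higher in CD4+ than in CD8+ cells and 2 were lower, where 44.5% of all genes were called and 2801 of 12559 were higher in CD4+ cells. The list median was 0.42 beside -0.01 over all genes, and without single libraries 15 to 17 were higher and 2 to 4 lower. The B cell list had 10 of 10 genes in the table and summed to 419 to 544 in WT CD8+ and 1734 to 2751 in KO CD8+ libraries, where most of it was *Cd79b* and *Ms4a1* and *Pax5* were at 0 in each KO CD8+ library.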
